A study of Homo sapiens with 6 samples.

Results

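The miR-17-92 cluster is a group of 6 microRNA (miRNA) hairpins cut from 1 primary transcript, and its 6 main mature products were followed here through 6 miRNA arrays. The members were fixed by name as hsa-miR-17-5p, hsa-miR-18a-5p, hsa-miR-19a-3p, hsa-miR-20a-5p, hsa-miR-19b-3p and hsa-miR-92a-3p, and all 6 were found among the 1891 human miRNA probes of the deposited raw intensity table, with 1 probe and 4 spots each. The arrays came from Lovo, SW620 and HT29, established human colorectal cancer lines. Each line had been stably transfected with the vector pSUPER gfp-neo carrying a short hairpin RNA (shRNA) against TGF-β1 (TGFB1), called knockdown here, or with the same vector carrying a control shRNA. Both groups therefore hold a vector, and there was 1 array per line and shRNA, so 3 knockdown and 3 control arrays formed 3 pairs within lines. Groups follow the sample titles. Another label field names the knockdown vector for the Lovo control and the control vector for the HT29 knockdown, so every direction given for Lovo and HT29 depends on the titles being right. The labels describe independently grown and harvested cultures and do not say whether a stable line was a clone or a pool. TGFB1 is a messenger RNA, which these arrays do not measure, and its level was not checked.

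A miRNA is a short RNA that guides the silencing complex to messenger RNAs, which it recognises mainly through its seed, bases 2 to 8. The cluster is transcribed under MYC, is often raised in colorectal tumours and promotes proliferation and survival. Known targets of its members include TGFBR2, the type II TGF-β receptor (miR-17-5p and miR-20a-5p), SMAD4, a transducer of TGF-β signals (miR-18a-5p), and BCL2L11, a cell death factor (miR-92a-3p).

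The mature sequences are shown in transcript order, with the seed in capitals, because the seeds define the families by which the values are described. They were taken from RefSeq (GRCh38.p14), where all 26 names of members, partner arms and relatives looked up had an entry.
hsa-miR-17-5p: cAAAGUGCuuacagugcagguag
hsa-miR-18a-5p: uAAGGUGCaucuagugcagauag
hsa-miR-19a-3p: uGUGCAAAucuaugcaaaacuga
hsa-miR-20a-5p: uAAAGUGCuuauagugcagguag
hsa-miR-19b-3p: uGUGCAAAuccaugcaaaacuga
hsa-miR-92a-3p: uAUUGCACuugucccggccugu
These lie on the plus strand of chromosome 13, at chr13:91350618-91350640, chr13:91350756-91350778, chr13:91350939-91350961, chr13:91351072-91351094, chr13:91351245-91351267 and chr13:91351361-91351382. The 6 hairpins span 787 bases inside the long noncoding RNA gene MIR17HG (chr13:91347687-91354577). The annotation table gives gene bounds only, so whether they are exonic or intronic is not stated here. The same mature miR-19b-3p and miR-92a-3p are also encoded on chromosome X (MIR19B2 and MIR92A2, mature arms at chrX:134169683-134169705 and chrX:134169544-134169565). Their signal cannot be assigned to either locus.

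Several relatives differ from a member by few bases. Positions are counted from 1 at the 5′ end, with the first-named miRNA's base first. Between miR-17-5p and miR-20a-5p the differences are C1U and C12U, and between miR-19a-3p and miR-19b-3p there is 1, U11C. The paralogues on chromosome X, shown for comparison with miR-17-5p, miR-20a-5p and miR-18a-5p, carry the same seeds.
hsa-miR-106a-5p: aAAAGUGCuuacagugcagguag
hsa-miR-20b-5p: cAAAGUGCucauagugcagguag
hsa-miR-18b-5p: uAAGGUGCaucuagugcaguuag
From miR-17-5p to miR-106a-5p the difference is C1A, from miR-20a-5p to miR-20b-5p they are U1C and U10C, and from miR-18a-5p to miR-18b-5p it is A20U. The capture probe sequences were not used here, so how far the probes tell such relatives apart was not tested.

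Signals below are the median over the spots of a probe of foreground minus background intensity, and a miRNA counted as detected on an array where this was at least 50. Between 398 and 542 human miRNAs were detected per array. Of 9 miRNAs marking colorectal epithelium, Lovo had 8 detected in knockdown and 6 in control, SW620 1 and 2, and HT29 1 and 0. Their summed signal was 102.5 to 8810.5 over the knockdown arrays and 32.5 to 1370 over the controls. Thus the epithelial miR-200 family and miR-192-5p were largely below detection in the lines labelled SW620 and HT29, and miR-215-5p was not detected on any array. By contrast, miR-375 of the same list was detected on 5 arrays. It read 64 in knockdown and 255.5 in control in SW620, and 100 and 10 in HT29. Blood cell markers summed to 428 to 1407 in knockdown and 766.5 to 3267.5 in control, with 2 to 4 of 7 detected per array. Among them, miR-150-5p was detected on 6 arrays, miR-142-3p on 5, miR-142-5p on 4, miR-486-5p on 3, miR-451a on 1, and miR-223-3p and miR-144-3p on none. The signal of miR-142-3p was 1097.5 and 1194.5 in SW620 (knockdown, control) and 2645 on the HT29 control array. Fibroblast and smooth muscle markers (4 of 5 matched) summed to 334.5 to 1776.5 in knockdown and 2544 to 4777 in control, with 1 to 4 detected. These sums did not overlap between the groups, but without miR-199a-5p they did, at 12.5 to 710 in knockdown and 442.5 to 1414 in control. The part of these markers in the results was not tested. In RNA from whole cultures, fewer cells of a kind and less RNA per cell cannot be told apart.

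In every line, miR-20a-5p gave a lower signal in knockdown than in control. In Lovo it read 2501 in knockdown and 4578.5 in control, in SW620 904 and 3814, and in HT29 1248.5 and 3824. Its seed partner miR-17-5p read 149 and 252.5 in Lovo, 286 and 356 in SW620, and 62 and 662 in HT29. Both were detected on all 6 arrays, and for both the knockdown signal was the lower one of each pair. Spot by spot, miR-17-5p was lower in knockdown at 2 of 4 positions in Lovo, 2 in SW620 and 4 in HT29. For miR-20a-5p it was 3, 4 and 4. Across lines the signals of miR-20a-5p did not overlap between the groups, all 3 knockdown arrays lying below all 3 controls, as for 13.2% of the 570 miRNAs tested below. Those of miR-17-5p did overlap, since its SW620 knockdown signal lay above the Lovo control.

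The miR-19 pair differed most in HT29. There miR-19a-3p read -33.5 in knockdown and 974 in control, against 65.5 and 115 in Lovo, while in SW620 the order was turned, with 390 in knockdown and 145.5 in control. For miR-19b-3p the signals were -22 and 1016 in HT29, 90.5 and 177 in Lovo, and 192.5 and 528.5 in SW620. The HT29 control was thus the highest array for both, and the HT29 knockdown the lowest.

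The last member of the transcript, miR-92a-3p, read 71.5 in knockdown and 302.5 in control in Lovo, 150.5 and 134.5 in SW620, and -20.5 and 314.5 in HT29. Its 2 lowest arrays were knockdowns, but the SW620 control lay below the SW620 knockdown.

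The remaining member, miR-18a-5p, was below detection throughout. Its signal was -25 and -56.5 in Lovo, -85 and -58.5 in SW620 and -89.5 and -85 in HT29 (knockdown, then control), although its neighbours miR-17-5p and miR-19a-3p in the transcript were detected on 6 and 5 arrays. Foreground was lower than the local background at all of its 24 spots, so no level or fold is given for it, and 5 members entered the tests. The array also carries the paralogue miR-18b-5p, which reached 217 on the HT29 control array and was below detection on the other 5.

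**Figure D1:**
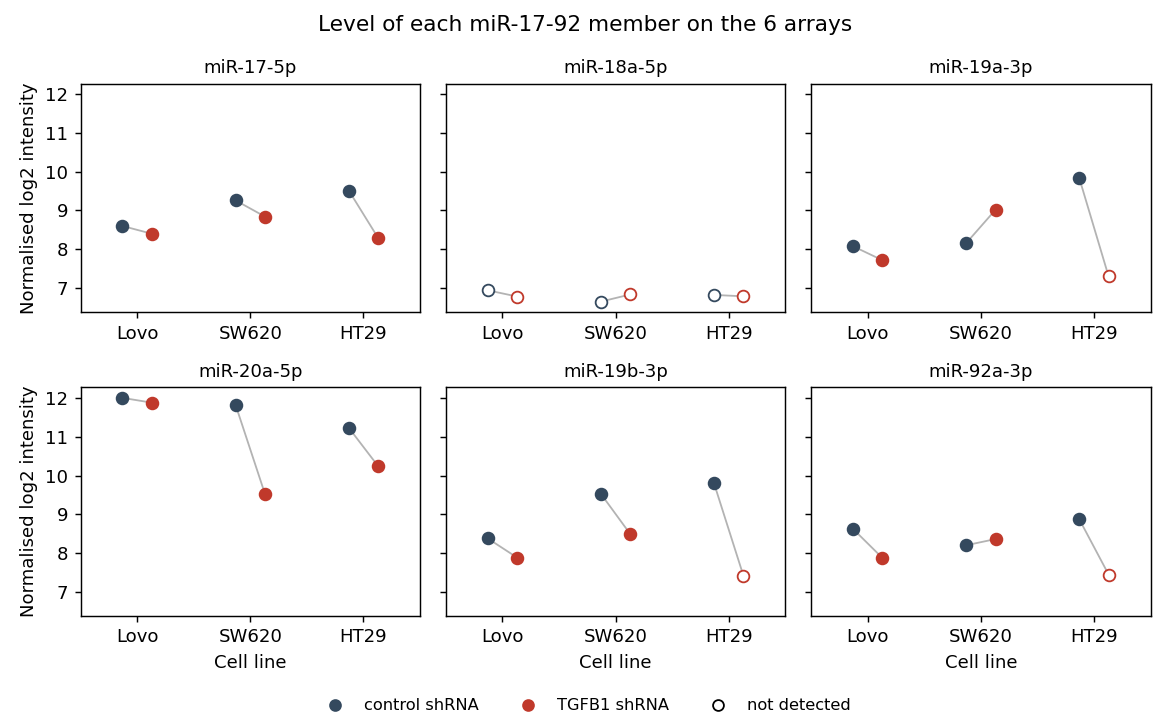
Normalised log2 intensity (y axis) of each of the 6 members by cell line (x axis), 1 point per array, dark for control shRNA, red for TGFB1 shRNA, open where the miRNA was not detected; grey lines join the arrays of a line and panels are different probes, whose levels are not comparable. The knockdown point lies below the control point in all 3 lines for miR-17-5p, miR-20a-5p and miR-19b-3p, and miR-18a-5p is open on all 6 arrays.

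To ask whether the members differed between knockdown and control across lines, intensities were background-corrected, put on the log2 scale and quantile-normalised, and 570 human miRNAs detected on at least 2 arrays were fitted in limma with the line as a block. All 5 tested members had a mean log2 difference below 0, with a median of -0.68, beside 0.05 over all 570. The largest was that of miR-19b-3p, -1.31 ± 0.41 (limma SE, n = 3 pairs), followed by miR-20a-5p with -1.14 ± 0.42. The other 3 were close to one another, at -0.68 ± 0.56 for miR-19a-3p, -0.68 ± 0.35 for miR-92a-3p and -0.62 ± 0.36 for miR-17-5p.

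None of the members passed the test. Adjusted p-values from limma (Benjamini-Hochberg over 570 miRNAs) were 0.263 for miR-19b-3p, 0.355 for miR-20a-5p, 0.536 for miR-92a-3p, 0.573 for miR-17-5p and 0.645 for miR-19a-3p. The fit called 0 of 570 miRNAs (0%), while 50 were lower and 11 higher at an unadjusted p under 0.05. Of the 5 members, 2 (miR-19b-3p and miR-20a-5p) were among the 50, which make up 8.77% of the miRNAs tested. Normalised differences were below 0 in all 3 lines for 3 members, miR-17-5p, miR-20a-5p and miR-19b-3p, where 17.2% of all tested miRNAs were. After normalisation no member had all knockdown arrays below all control arrays, as 9.3% of the tested miRNAs did. For miR-20a-5p the normalised Lovo knockdown level, 11.88, lay above the HT29 control, 11.24. With 2 residual degrees of freedom the call depended on single pairs. Without the SW620 pair limma called 25 of 570 miRNAs, 22 of them lower. Members among them were miR-19a-3p (-1.45, adjusted p = 0.0235) and miR-19b-3p (-1.44, adjusted p = 0.0316). Their pairs were far apart, at -0.36 in Lovo and -2.55 in HT29 for miR-19a-3p, and -0.50 and -2.39 for miR-19b-3p. Without the HT29 pair it called 25 of 570, 19 of them lower. The only member among these was miR-20a-5p (-1.21, adjusted p = 0.00267), whose pairs stood at -0.13 in Lovo and -2.30 in SW620. The mean of miR-19a-3p turned to 0.25. Without the Lovo pair limma called 0 of 570. Each of these fits held 2 pairs, with still fewer residual degrees of freedom. Their p-values lean on the variance shared over miRNAs and are not read as decreases of the members.

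In HT29 all 5 tested members were lower in knockdown, with the miR-19 pair furthest apart. Log2 differences there were -2.55 ± 0.19 for miR-19a-3p (SE over 4 spots per array, technical error only), -2.39 ± 0.20 for miR-19b-3p, -1.43 ± 0.23 for miR-92a-3p, -1.23 ± 0.59 for miR-17-5p and -0.99 ± 0.54 for miR-20a-5p. With 1 array per shRNA there is no test within a line. Since miR-19a-3p, miR-19b-3p and miR-92a-3p were not detected on the HT29 knockdown array, they have only a bound, which holds for quantile-normalised values. With these they were at least 5.02-fold, 4.89-fold and 2.57-fold higher in control. The knockdown was set to the higher of its own value and the lowest detected level on that array. A loss of detection in knockdown befell 25.2% of the 425 miRNAs detected on the HT29 control array, against 3 of the 5 members. Of the 2 members detected on both HT29 arrays, 1 (miR-17-5p) was at least 2-fold lower, as were 6.92% of 318 miRNAs. The direction in HT29 depended on scaling. With arrays aligned on spike control probes miR-17-5p (0.61), miR-20a-5p (0.60) and miR-92a-3p (0.63) stood above 0, and miR-19a-3p (-0.64) and miR-19b-3p (-0.49) below. The bounds above thus did not hold under that scaling. The median of the members turned from -1.43 to 0.60, and that of all 570 miRNAs from 0.08 to 2.01. Across lines that scaling gave a median of -0.17 for the members and 0.57 for all tested miRNAs. Spike control scaling shifts all miRNAs of an array by the same amount. It therefore cannot change where the members stand relative to the median of all tested miRNAs. In HT29 they stood at -1.41 from that median both with spike control scaling and without normalisation, and at -1.51 with quantile normalisation. Across lines these values were -0.74, -0.74 and -0.73. The spike controls are thus no check of this relative position.

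In SW620 the members did not all point the same way. The log2 difference of miR-20a-5p was -2.30 ± 0.78 and that of miR-19b-3p -1.04 ± 0.40. In contrast, miR-19a-3p stood at 0.87 ± 0.46. The other 2, miR-92a-3p at 0.16 ± 0.49 and miR-17-5p at -0.42 ± 0.74, were within their error over spots. All 5 were detected on both arrays, and 2 of them were at least 2-fold lower, where 8.15% of 368 miRNAs were. None of the 5 lost detection, which 26.7% of the miRNAs detected on the SW620 control array did.

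Lovo showed small differences, all below 0. They ran from -0.13 ± 0.59 for miR-20a-5p and -0.20 ± 0.95 for miR-17-5p, both within their error, through -0.36 ± 0.07 for miR-19a-3p and -0.50 ± 0.06 for miR-19b-3p to -0.75 ± 0.57 for miR-92a-3p. No member reached 2-fold, which 6.37% of 408 miRNAs did downwards, and none lost detection, against 15.2% of the miRNAs detected on the Lovo control array. The median of the members was -0.36 in Lovo, -0.42 in SW620 and -1.43 in HT29. Over the miRNAs detected on both arrays of the line it was 0.09, 0.02 and 0.15, and over all 570 tested miRNAs 0.06, -0.05 and 0.08. For HT29 the latter is the like comparison, since the members' median includes some not detected in knockdown.

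**Figure D2:**
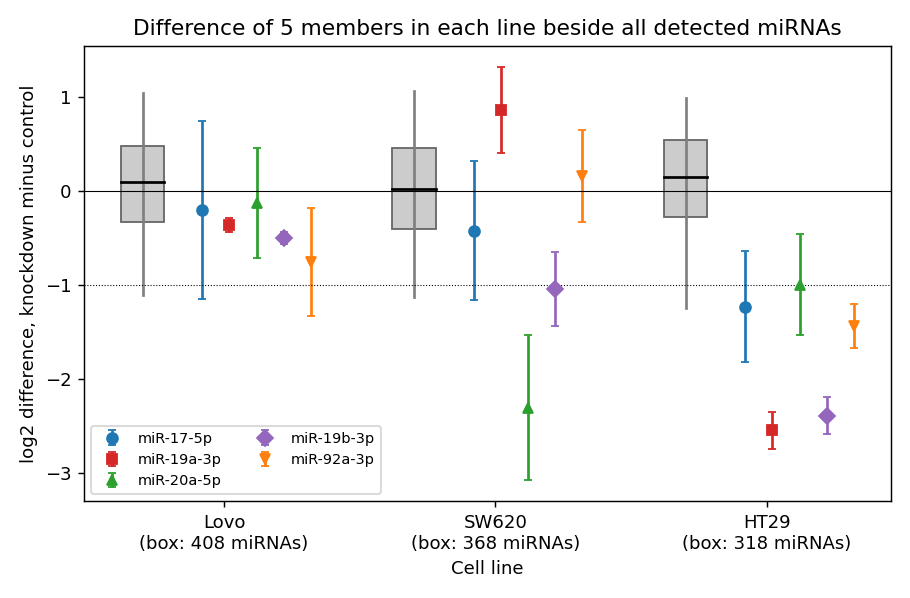
Log2 difference, knockdown minus control (y axis), of the 5 tested members in each line (x axis), with bars for the SE over replicate spots; grey boxes give the quartiles and grey lines the range from the 5th to the 95th percentile over the miRNAs detected on both arrays of the line, and the dotted line marks 2-fold lower. All 5 members lie below 0 in Lovo and HT29, with a wide scatter in SW620 from -2.30 (miR-20a-5p) to 0.87 (miR-19a-3p). In HT29 miR-19a-3p, miR-19b-3p and miR-92a-3p were not detected in knockdown, and the box leaves out other miRNAs of that kind.

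The error over spots was itself uneven, so the spots were examined. Each array carried every probe in 2 sets of blocks, with 2 spots in blocks 1 to 18 (the first set) and 2 in blocks 19 to 36 (the second set). For miR-19b-3p in HT29 the spots were alike: foreground minus background read 23, -15, -29 and -31 in knockdown and 683, 819, 1265 and 1213 in control. For miR-20a-5p on the SW620 knockdown array they were not, reading 1508 and 1658 in the first set but 300 and -7 in the second, while the control read 3534, 3063, 4094 and 4330. All 4 positions were lower in knockdown, but the size of the difference came mainly from the second set. The spots of miR-19a-3p in SW620 read 174 and 241 in knockdown against 303 and 244 in control in the first set, and 561 and 539 against 47 and 6 in the second. The excess of miR-19a-3p in SW620 knockdown was therefore seen in the second set only.

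With each set averaged and normalised on its own, an analysis chosen after seeing the spots, the first set put all 5 members below 0 in SW620 (median -0.77), from -1.26 for miR-17-5p to -0.02 for miR-19a-3p. The second set put 3 above 0 there (median 0.66), with miR-19a-3p at 1.79, miR-92a-3p at 1.05 and miR-17-5p at 0.66, while miR-20a-5p lay at -3.99 and miR-19b-3p at -1.19. In SW620, 3 of 5 members thus had opposite signs in the block sets, where 30.2% of the 368 miRNAs detected on both arrays did. In Lovo it was 2 of 5 (miR-17-5p and miR-20a-5p), against 26.5% of 408. In HT29 it was 0 of the 2 members detected on both arrays, against 28.9% of 318. Both sets were also below 0 for the 3 members not detected in knockdown. Over all 5 tested members the HT29 medians were -1.91 in the first set and -1.57 in the second. The HT29 knockdown array was nevertheless the one with the weakest match between its sets: Pearson's r across its 419 detected miRNAs, which are not independent replicates, was 0.68, against 0.80 to 0.89 on the other arrays.

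Some members leaned to 1 set on nearly every array. The level of miR-17-5p was higher in the first set on 6 of 6 arrays, by a log2 gap of 0.19 (SW620 knockdown) to 2.24 (Lovo knockdown). Its mean signal in the second set was 32 and 39 in Lovo (knockdown, control) and -5.5 in HT29 knockdown. These lie under the cutoff of 50, so its detection on those arrays rested on the first set. For miR-20a-5p the second set was higher on 5 of 6 arrays, and the exception was the SW620 knockdown, where the first set was higher by 2.66. Across lines the mean difference of miR-20a-5p was -0.61 from the first set and -1.59 from the second, and that of miR-92a-3p was -1.44 and 0.075. Only miR-19b-3p gave close values, -1.16 and -1.44, with a difference below 0 in both sets in each line.

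**Figure D3:**
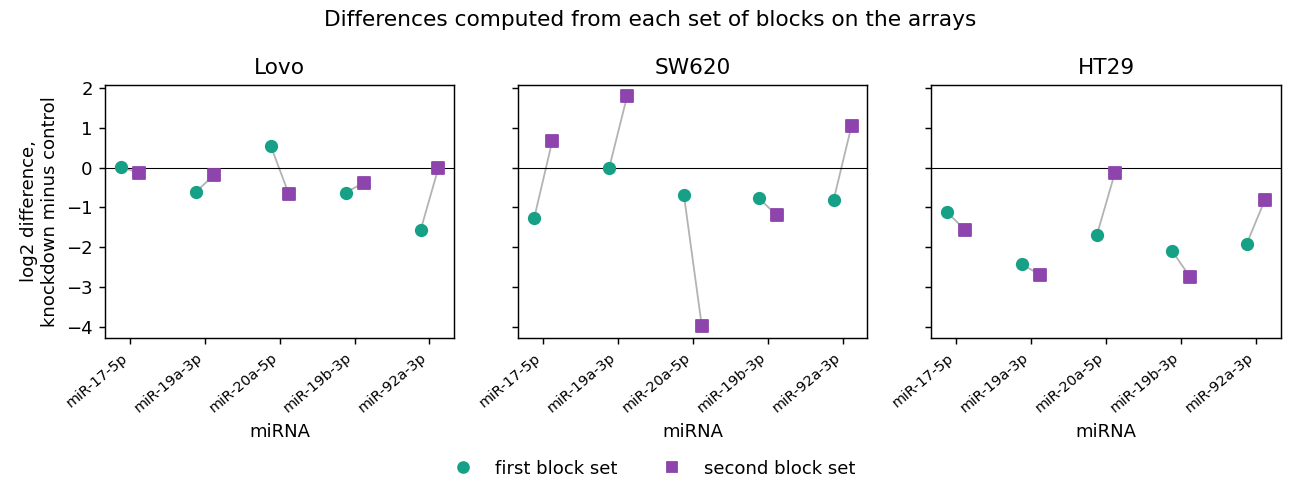
Log2 difference, knockdown minus control (y axis), of the 5 tested members (x axis) in Lovo, SW620 and HT29, computed from the first block set (circles) and from the second (squares). In HT29 both symbols lie below 0 for all 5 members, whereas in SW620 the sets lie on opposite sides of 0 for miR-17-5p, miR-19a-3p and miR-92a-3p.

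Because the members come from 1 transcript, their profiles over the 6 arrays were compared with one another. The highest Pearson's r over 6 arrays was 0.99, for miR-17-5p and miR-19b-3p, but it was 0.62 in the first block set and 0.69 in the second, and other pairs led there (miR-19a-3p and miR-19b-3p with 0.88, miR-19a-3p and miR-92a-3p with 0.94). Values of r were 0.84 for miR-19a-3p and miR-92a-3p, 0.82 for miR-17-5p and miR-19a-3p, 0.77 for both miR-19a-3p and miR-92a-3p with miR-19b-3p, and 0.73 for miR-17-5p and miR-92a-3p. In contrast, miR-20a-5p followed none of them, with r from -0.18 (miR-19a-3p) to 0.27 (miR-19b-3p) and 0.12 with its seed partner miR-17-5p. Over the 10 pairs the median r was 0.75, where all pairs of tested miRNAs had a median of 0.00 and quartiles of -0.41 and 0.42. These are descriptions: the 6 arrays share lines in pairs and 1 normalisation, and the HT29 arrays hold much of the range. The place of miR-20a-5p depended on the spots too, since its r with miR-17-5p was 0.75 in the first set and -0.54 in the second. Medians over the 10 pairs were 0.61 and 0.46 in the sets.

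**Figure D4:**
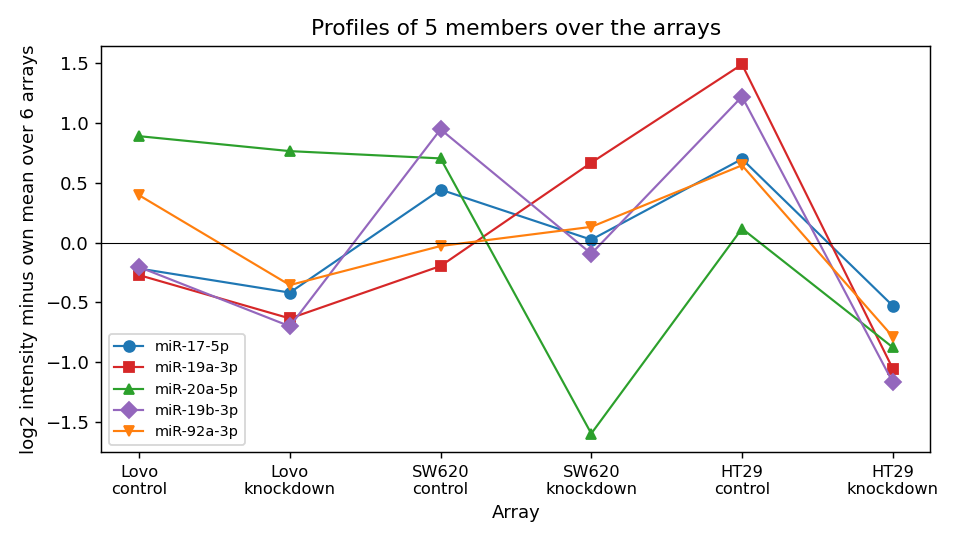
Normalised log2 intensity minus the miRNA's own mean over the 6 arrays (y axis) for the 5 tested members on each array (x axis). The profiles of miR-17-5p, miR-19a-3p, miR-19b-3p and miR-92a-3p peak on the HT29 control array, while miR-20a-5p is highest in Lovo and lowest on the SW620 knockdown array.

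The cluster's levels were also compared between lines, with the shRNA as a block. The highest mean normalised level was in Lovo for miR-20a-5p, at 11.95 with a gap of 0.13 between its 2 arrays, against 10.74 in HT29 (gap 0.99) and 10.67 in SW620 (gap 2.30). For miR-17-5p the order was SW620 (9.05, gap 0.42), HT29 (8.90, gap 1.23) and Lovo (8.50, gap 0.20), and for miR-19b-3p it was SW620 (9.01), HT29 (8.61) and Lovo (8.13), with gaps of 1.04, 2.39 and 0.50. The means of miR-19a-3p were 8.58, 8.57 and 7.89 in the same order, and those of miR-92a-3p 8.28, 8.16 and 8.25, so that SW620 and HT29 were separated by less than their gaps for every member. limma's F-test called 0 of 570 miRNAs between lines (0%), with 32 at an unadjusted p under 0.05, none of them a member. The smallest adjusted p among the members was 0.907, shared by miR-17-5p, miR-20a-5p and miR-19b-3p.

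The partner arms of the same hairpins gave almost no signal. Of 8, including those of the chromosome X copies, 6 were not detected on any array. The exceptions were miR-92a-2-5p, at 58.5 on the SW620 control array, and miR-18a-3p, at 69 and 66.5 on the Lovo and HT29 knockdown arrays and not detected on any other. The detected arm of the miR-18a hairpin was thus the 3p arm and not miR-18a-5p, at signals close to the limit. Its mean log2 difference was 0.51 ± 0.31 (limma adjusted p = 0.579). Since miR-18a-3p entered the tests only through 2 knockdown arrays, where it was higher, no direction is read from this value.

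Of 7 miRNAs of the paralogue clusters on chromosomes X and 7, 5 were tested, all had a mean below 0 (median -0.55) and 0 passed. The lowest was miR-25-3p of the miR-92a seed family, at -1.27 ± 0.34 (limma adjusted p = 0.203). Close relatives did not always follow the member they resemble. In HT29 miR-106a-5p, which differs from miR-17-5p by C1A, stood at 0.31, beside -1.23 for miR-17-5p, with signals of 879.5 and 932.5 in knockdown and control. In SW620 miR-20b-5p stood at 0.14 ± 0.61 (SE over spots) beside -2.30 ± 0.78 for miR-20a-5p, which was -0.69 in the first block set and -3.99 in the second. These differences between probes were not tested. On the HT29 arrays 2 of the 7 were detected in knockdown and 6 in control. Those detected in control only were miR-106b-5p (signals of -30 and 912.5), miR-93-5p (-46.5 and 508.5), miR-20b-5p (-0.5 and 366.5) and miR-18b-5p (-58.5 and 217). The same loss befell 25.2% of the 425 miRNAs detected on the HT29 control array. Among 5 further miRNAs that share a member's seed, 2 were tested, miR-92b-3p (0.39 ± 0.33) and miR-32-5p (-0.42 ± 0.45), and 0 passed.

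MYC, which drives this cluster, is described as repressing other miRNAs, and 7 of these were listed for comparison. All 7 were tested, all had a mean below 0 (median -1.09, beside 0.05 over all 570) and 0 passed. At an unadjusted p under 0.05 in limma 4 were lower, beside 8.77% of all tested miRNAs. Of these 4, miR-26a-5p was detected on 3 control and 0 knockdown arrays. It therefore entered the tests only through the group where it was higher. MYC activity was not measured. The lowest was miR-30a-5p (-1.72 ± 0.29, limma adjusted p = 0.154), and miR-16-5p, a restrainer of the cell cycle, had -0.77 ± 0.66. As with the members, fewer of them were detected on the HT29 knockdown array, 2 of the 7 against 7 in control. Over all human miRNAs 419 were detected in HT29 knockdown and 425 in control, and 25.2% of those 425 were not detected in knockdown. Among all tested miRNAs with a registry number below 500, which holds for every member, the median difference was -0.27 (124 of 188 below 0), and among the 382 others it was 0.15.

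The miRNAs whose profile was most like the mean of miR-17-5p and miR-20a-5p, the members detected on all 6 arrays, were picked by root mean square distance between centred profiles among 254 others detected on all arrays. They were miR-31-5p (0.18), miR-3182 (0.21), miR-3607-5p (0.23), miR-4497 (0.24) and miR-491-3p (0.27), beside a median distance of 0.70. That mean joins a pair of unlike profiles (r 0.12, distance 0.98), so it stands for neither member alone. The nearest, miR-31-5p, a miRNA often raised in colorectal tumours, read 1053.5 in knockdown and 1828.5 in control in Lovo, 699 and 1825 in SW620, and 835 and 1748.5 in HT29. Its log2 differences were -0.15, -1.27 and -0.68, a pattern for which it was chosen.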

How the data were processed

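Hy3-labelled RNA of 6 cultures was read on 1-colour arrays, per the labels' protocols. The deposited raw table gives, per the file headers, each spot's foreground intensity, also with its background intensity subtracted. The authors' deposited value table holds a ratio on a linear scale, not centred. Tested on the files, it is each probe's median background-subtracted intensity over an array-wide factor of 282.75 to 353.75, within 1% for 100% of values. The sources used here do not state how that factor or the background was obtained, or which scanner was used. Column medians were 0.372 and 0.493 (Lovo knockdown, control), 0.551 and 0.446 (SW620), and 0.537 and 0.638 (HT29).

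Spots were corrected by normexp (offset 50), put on the log2 scale, averaged per probe and quantile-normalised over all probes except controls, with limma 3.58.1 in R 4.3.3. miRNAs detected (at least 50) on at least 2 arrays were fitted (lmFit, eBayes with a trend), and adjusted p under 0.05 was called. The block is the cell line, which pairs the arrays. Over 570 miRNAs the deviations of a line's 2 arrays from their group means had correlations of 0.38 (Lovo), -0.16 (SW620) and -0.06 (HT29). Members, lists and tests were chosen with earlier results of these data known. Named were the members, listed relatives and the 5 nearest profiles. The fit was tested on simulated data. The number of arrays limits the precision. Alternatives covered background, normalisation, filter, spots, value table, variance model, block and pairs.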

Additional observations from a re-analysis of the deposited data

Results flagged for a closer look

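In 2 members the lines pointed in different directions, as judged from 1 pair of arrays per line. The log2 difference of miR-19a-3p was -0.36 in Lovo and -2.55 in HT29 but 0.87 in SW620. That of miR-92a-3p was -0.75 in Lovo and -1.43 in HT29 but 0.16 in SW620, which was within its error over spots (0.49). The difference between lines was not tested, since each line has 1 knockdown and 1 control array. In SW620 the first block set gave -0.02 for miR-19a-3p and -0.81 for miR-92a-3p, and the second gave 1.79 and 1.05.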

How the results depend on the processing

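No setting with all 3 pairs called a member. The count of miRNAs called across lines was 0, and was 11 with median scaling, 5 with cyclic loess, 6 with robust eBayes, 2 without the 1 probe of equal value on all arrays, and 0 to 25 on leaving out 1 pair (0 without Lovo, 25 without SW620 and 25 without HT29). With no replicate block it was 0 and the members' median stayed at -0.68. That median was -1.09 to -0.31 without 1 pair, -0.17 with spike control scaling and -2.16 with plain background subtraction. In Lovo plain subtraction gave -1.78. In SW620 the authors' value table, which holds 2 of the members on all arrays, gave -1.27 and the second block set 0.66. In HT29 the values were -6.30 with plain subtraction, -1.72 without normalisation, -1.20 with median scaling, 0.60 with spike control scaling, -1.87 with the value table and -1.91 with the first block set. Spike control scaling turned miR-17-5p (0.61), miR-20a-5p (0.60) and miR-92a-3p (0.63) in HT29. Across lines miR-19a-3p ranged from -1.45 to 0.25 without 1 pair, turning without that of HT29, and miR-92a-3p to 0.075 with the second block set, which like the first was tried after seeing the data. Between lines median scaling called 12 miRNAs, cyclic loess 1, spike control scaling 1, robust eBayes 2 and the second block set 1, none a member. Except where fewer arrays or probes entered, the cause was not tested. Signals near background allow no value for miR-18a-5p and only bounds in HT29 for miR-19a-3p, miR-19b-3p and miR-92a-3p. Those bounds were computed with quantile normalisation and did not hold with spike control scaling.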
